A study of Mus musculus with 20 samples.

Results

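The genes described here are 39 genes of protein folding, translocation and degradation in the endoplasmic reticulum (ER), read from RNA sequencing of mouse liver and the epididymal fat depot (eWAT, white adipose tissue beside the epididymis). They were chosen by name, as 15 chaperones and folding enzymes, 4 sensors, 7 degradation factors and 13 parts of the translocon, signal peptidase and associated complexes. All 39 were found by symbol among the 15608 genes of the liver table and the 20738 genes of the eWAT table, and all 39 passed the filter on low counts in both. The mice were male and 2 months old, and were wild type (WT) or had the IR 4A receptor, in which the MAD2-binding motif of the insulin receptor is altered. MAD2 is a spindle checkpoint protein that also takes part in removing the insulin receptor from the cell surface. The labels give no other allele or agent, no diet, feeding state or time of day, and no account of how the IR 4A mice were made. Either genotype had 5 libraries in either tissue, which makes 4 groups and 20 libraries. The labels number the replicates but name no animals. The p-values therefore rest on the spread among these libraries, which may be technical.

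Proteins bound for secretion or for membranes enter the ER through the Sec61 channel while they are being made, lose their signal peptide to the signal peptidase, and are then folded by chaperones and disulfide isomerases. Proteins that do not fold are sent back to the cytosol by membrane complexes and destroyed by the proteasome. When unfolded proteins accumulate, the sensors Ire1 (gene Ern1), Perk (gene Eif2ak3) and Atf6 start the unfolded protein response, in which the transcription factors Xbp1 and Atf6 act on genes of folding, translocation and degradation. Hepatocytes secrete most plasma proteins and fat cells secrete adipokines, so both tissues carry a large ER load.

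Promoter sequences are shown first because part of this group is known for a shared element, the ER stress response element (ERSE), at which Atf6 and Xbp1 act. Its letters are CCAAT, then any 9 bases, then CCACG. A second element, ERSE-II, reads ATTGG, then any base, then CCACG. Both end in the same CCACG core. The windows are RefSeq sequences of GRCm38.p6, 300 bases around the start of each gene, searched on both strands, and 31 of the 39 members had one. Sec61a1, Hyou1, Manf, Derl1, Spcs3, Atf6, Ssr2 and Sec11c were not searched. ERSE stood in 9 of the 31 windows (29%), against 37 of 27025 genes (0.137%). ERSE-II stood in 2 of the 31 (6.45%), against 12 of 27025 genes (0.0444%). The CCACG core alone was common, at 77.4% of the members and 35.5% of all genes. A match describes these letters in this window and is not a measured binding site.

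Hspa5 encodes the Hsp70 chaperone BiP, and Creld2 a folding factor induced by ER stress. Their whole windows follow, 5′ to 3′ on the strand of the gene, with the fixed letters of ERSE in capitals.
Hspa5 (chr2:34771840-34772139, plus strand): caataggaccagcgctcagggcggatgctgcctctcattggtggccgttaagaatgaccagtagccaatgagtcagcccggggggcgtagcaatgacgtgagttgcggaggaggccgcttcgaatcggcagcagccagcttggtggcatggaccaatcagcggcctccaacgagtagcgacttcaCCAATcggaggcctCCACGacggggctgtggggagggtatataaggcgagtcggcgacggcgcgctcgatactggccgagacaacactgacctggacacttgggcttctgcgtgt
Creld2 (chr15:88819396-88819695, plus strand): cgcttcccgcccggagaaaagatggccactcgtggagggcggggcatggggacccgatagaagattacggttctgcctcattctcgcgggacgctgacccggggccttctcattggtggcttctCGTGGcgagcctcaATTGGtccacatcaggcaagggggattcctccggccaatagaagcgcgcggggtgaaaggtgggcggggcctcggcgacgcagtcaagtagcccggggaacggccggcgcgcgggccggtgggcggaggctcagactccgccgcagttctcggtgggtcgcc

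All 10 matches to ERSE are given next with their place in GRCm38.p6, so that their variable bases can be compared. Those that begin with CGTGG lie on the strand opposite to the gene and are shown as they read along the gene.
Hspa5 (chr2:34772025-34772043, gene on the plus strand): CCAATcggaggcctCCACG
Calr (chr8:84847075-84847093, gene on the minus strand): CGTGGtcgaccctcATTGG
Derl3 (chr10:75893242-75893260, gene on the plus strand): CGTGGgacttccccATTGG
Hsp90b1 (chr10:86705638-86705656, gene on the minus strand): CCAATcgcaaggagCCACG
Hsp90b1 (chr10:86705533-86705551, gene on the minus strand): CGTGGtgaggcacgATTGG
Canx (chr11:50325800-50325818, gene on the minus strand): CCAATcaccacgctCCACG
Pdia6 (chr12:17266491-17266509, gene on the plus strand): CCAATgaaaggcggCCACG
Dnajc3 (chr14:118937827-118937845, gene on the plus strand): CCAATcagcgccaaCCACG
Creld2 (chr15:88819520-88819538, gene on the plus strand): CGTGGcgagcctcaATTGG
Syvn1 (chr19:6046532-6046550, gene on the plus strand): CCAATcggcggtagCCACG

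Both matches to ERSE-II, in Herpud1 and Dnajb11, have the same fixed letters and differ in the base between them.
Herpud1 (chr8:94386377-94386387, gene on the plus strand): ATTGGgCCACG
Dnajb11 (chr16:22857852-22857862, gene on the plus strand): ATTGGcCCACG

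The elements were unevenly spread over the functions. Of the chaperones with a window, 8 of 13 held ERSE or ERSE-II, as did 3 of 6 degradation genes, namely Herpud1, Derl3 and Syvn1. None of the 3 sensors and none of the 9 translocon genes with a window held either. Hsp90b1, which encodes the ER Hsp90 protein, was the only member with 2 matches. The matches lay between 212 bases before and 18 bases after the start site.

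Total estimated counts per library ran from 17989420 to 24238359 in liver and from 13651874 to 21615358 in eWAT. Values are CPM, counts scaled to a common library size with TMM factors within each tissue, so liver and eWAT CPM are not set against each other. Hepatocyte markers were plain in every liver library, with Alb at 38900 to 54080 CPM. In eWAT the summed level of 12 adipocyte markers ran from 3089 to 33330 CPM, and that of 18 epididymis markers, 17 of them in the table, from 5770 to 48700 CPM. The epididymis sum was above the adipocyte sum in every eWAT library but WT 4, so the libraries labelled eWAT hold much RNA of epididymis. In such bulk tissue a change in the share of a cell type and a change of RNA per cell cannot be told apart. The liver library that was highest for most members also had the highest acute phase sum. The eWAT library that was lowest for most members had the lowest epididymis sum. Some other cell type markers differed between the eWAT groups. These values are given beside the results.

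In liver most of these genes had lower levels in IR 4A than in WT, and the largest differences were among the chaperones. A negative log2 fold change was found for 36 of 39 members, where 49% of all 12421 tested genes were negative. The median was -0.41 for the members and 0.005 for all genes. At an unadjusted p under 0.05, 23 members were lower and 0 higher, where 9.48% of all genes were lower. No member passed Benjamini-Hochberg adjustment over all genes in edgeR's quasi-likelihood test (lowest adjusted p = 0.101), and 0.00805% of all genes did, which is 1 gene. The groups did not overlap for 3 members (Sec61b, Sec61g and Ssr4), with all IR 4A libraries below all WT libraries, where 1.83% of all genes were lower without overlap. By function, 15 of 15 chaperones, 4 of 4 sensors, 5 of 7 degradation genes and 12 of 13 translocon genes were negative, with medians of -0.51, -0.16, -0.24 and -0.46. Those below an unadjusted p of 0.05 were 10, 1, 3 and 9 of them.

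**Figure D1:**
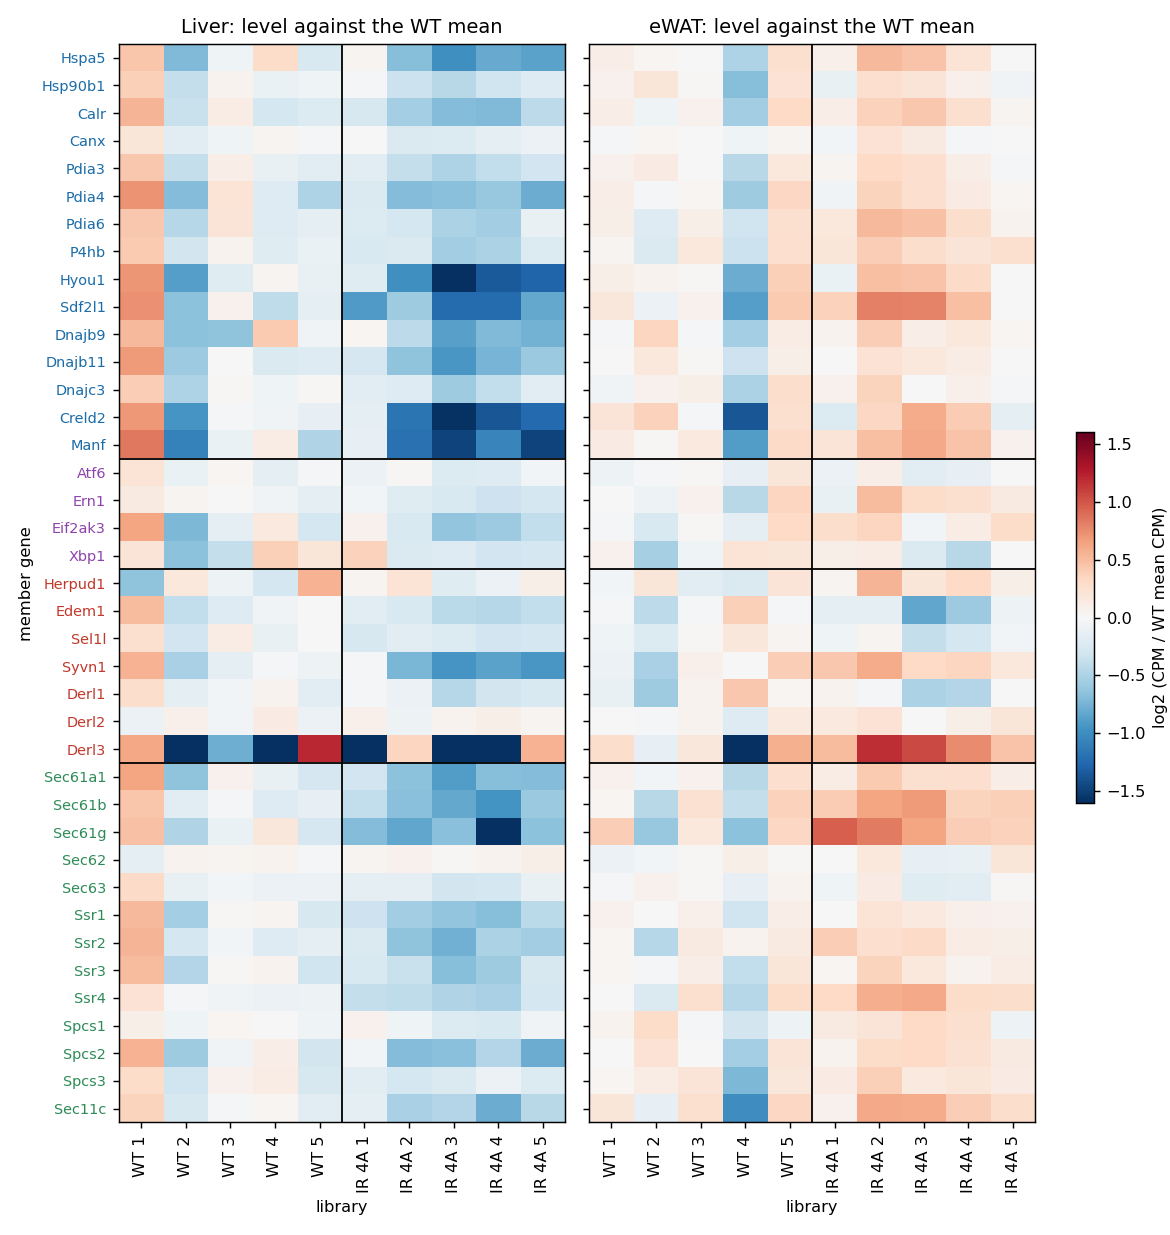
Level of each member (rows, grouped by function with black lines between chaperones, sensors, degradation and translocon genes) in each library (columns), as log2 of its CPM over the WT mean CPM of that tissue, with values past the ends of the scale drawn in the end colour. Liver WT 1 is the highest library for 34 of 39 members and eWAT WT 4 the lowest for 28 of 39.

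A single WT library was the highest for nearly the whole group in liver. WT 1 had the highest level of 34 of the 39 members, where it was the highest for 17.6% of all genes. The members took 1.04% of the counts of WT 1 and between 0.545% and 0.805% in the other 9 libraries. IR 4A 3 was the lowest for 18 members and IR 4A 4 for 12. WT 1 was also the library with the most acute phase mRNA: the summed level of 26 acute phase genes, led by the fibrinogen chains Fga, Fgb and Fgg, was 128400 CPM in WT 1, 72720 CPM in WT 3, and 24640 to 33020 CPM in the other WT libraries. In IR 4A it was 16770 to 30490 CPM.

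Without WT 1, 37 of 39 members were negative (49.4% of all genes) and 15 were lower at an unadjusted p under 0.05 (6.84% of all genes). These 15 were all among the 23 found with every library, and the median was -0.25. The chaperone count fell from 10 to 6 and the translocon count from 9 to 7. Leaving out WT 1 and WT 3 together gave 38 negative members and a median of -0.18. In that fit 10 members were lower at an unadjusted p under 0.05, where 5.98% of all genes were. With the acute phase level as a covariate, a setting added after the data were seen, the median was -0.14. There 4 members kept an unadjusted p under 0.05 (Ssr4, Sdf2l1, Sec61b and Sec61g), where 5.14% of all genes were lower. The part of the acute phase state in the member changes was not tested beyond these fits.

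**Figure D2:**
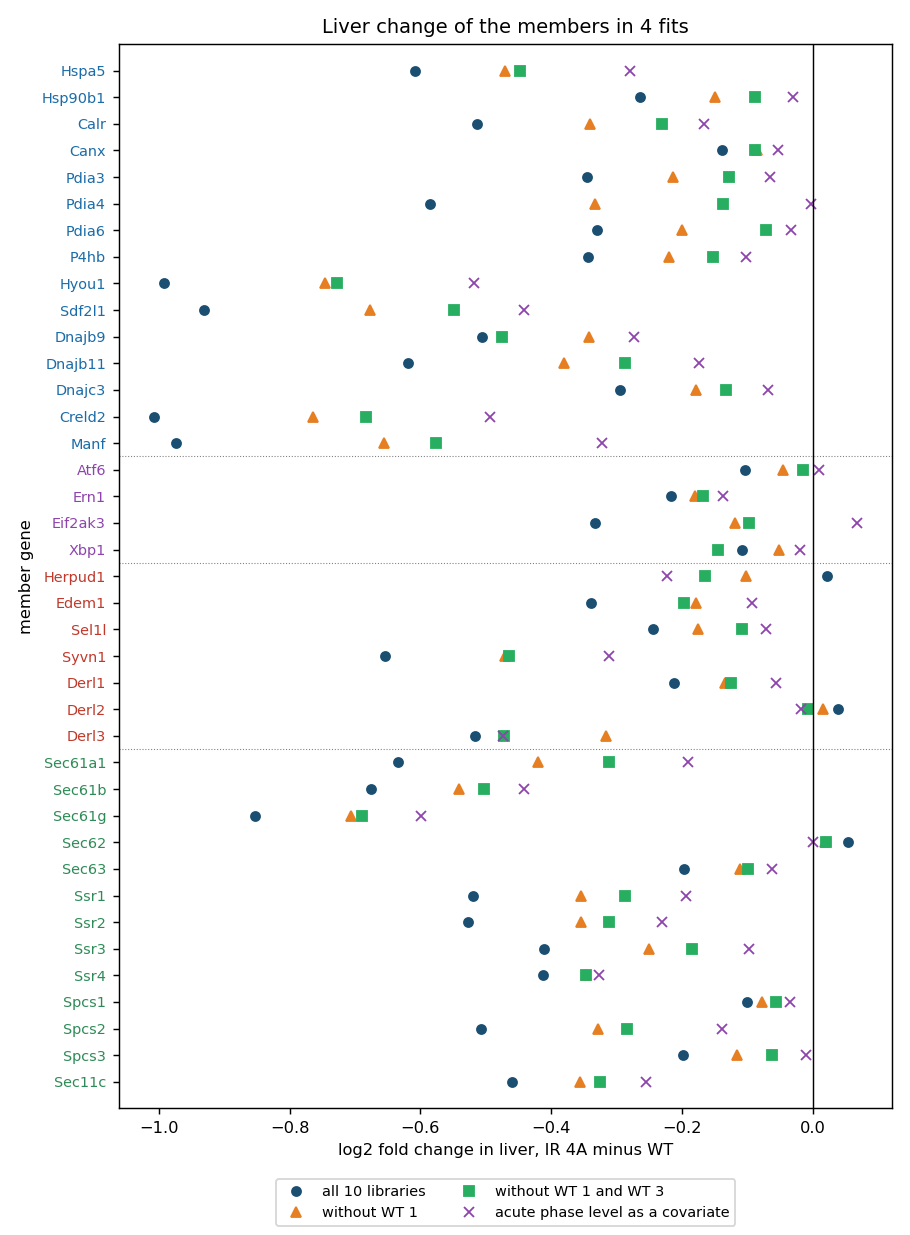
Log2 fold change of each member in liver (IR 4A minus WT, horizontal axis) in 4 fits: all 10 libraries, without WT 1, without WT 1 and WT 3, and with the acute phase level as a covariate. For most members the points move toward 0 when WT 1 is left out, and the median goes from -0.41 to -0.25, -0.18 and -0.14.

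Among the chaperones, those with the largest liver differences were factors that assist BiP or act beside it. Sdf2l1, an ER protein that works with BiP and its J-proteins, stood at 28.6, 10.9, 18.2, 13.0 and 15.7 CPM in WT 1 to 5 and at 9.23, 11.6, 7.37, 7.35 and 9.80 CPM in IR 4A 1 to 5. Its groups overlapped only through WT 2, which lay below IR 4A 2. It had -0.93 on the log2 scale (SE 0.23, edgeR adjusted p = 0.126). Log2 fold changes of the next genes are given in the same way, first in the parentheses. Hyou1, an Hsp110-type chaperone that exchanges nucleotide on BiP, stood at 203, 67.4, 109, 128 and 114 CPM in WT and at 109, 62.8, 40.8, 48.9 and 51.1 CPM in IR 4A (-0.99, SE 0.30, edgeR adjusted p = 0.155). Creld2 stood at 46.0, 14.7, 27.8, 27.2 and 25.9 CPM in WT and at 25.4, 12.6, 9.44, 10.98 and 12.0 CPM in IR 4A (-1.01, SE 0.31, edgeR adjusted p = 0.156). In both genes WT 2 and IR 4A 1 crossed: WT 2 was low among the WT libraries and IR 4A 1 was as high as a typical WT library. Dnajb11, a J-protein of BiP, stood at 160, 66.4, 100.1, 84.5 and 85.7 CPM in WT and at 82.1, 63.8, 52.3, 59.4 and 65.9 CPM in IR 4A (-0.62, SE 0.21, edgeR adjusted p = 0.174).

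BiP itself differed less than Sdf2l1, Hyou1 and Creld2, and about as much as Dnajb11. Hspa5 stood at 709, 319, 495, 634 and 441 CPM in WT liver and at 534, 323, 262, 297 and 288 CPM in IR 4A, which was -0.61 on the log2 scale (SE 0.23, edgeR adjusted p = 0.22). WT 2 again lay within the range of IR 4A, and IR 4A 1 within that of WT. Manf, a secreted protein that binds BiP, had 51.4 ± 25.7 CPM (SD, n = 5) in WT and a log2 fold change of -0.97 (SE 0.34). The lectin chaperone Calr had -0.51, its membrane-bound relative Canx -0.14, and the Hsp90 protein Hsp90b1 -0.26. The disulfide isomerases had -0.35 (Pdia3), -0.59 (Pdia4), -0.33 (Pdia6) and -0.34 (P4hb). The J-proteins Dnajb9 and Dnajc3 had -0.51 and -0.29. Of the chaperones, 5 did not reach an unadjusted p of 0.05: Hsp90b1, Canx, Pdia6, Dnajb9 and Dnajc3.

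The sensors differed least. Ern1, which encodes the kinase and ribonuclease Ire1, stood at 76.5, 71.6, 69.6, 66.5 and 62.9 CPM in WT liver and at 67.1, 60.7, 58.5, 55.0 and 57.2 CPM in IR 4A. Only IR 4A 1 lay within the WT range, which gave a difference of -0.22 (SE 0.08, edgeR adjusted p = 0.187). Eif2ak3, which encodes the kinase Perk, stood at 26.4, 10.3, 15.3, 19.0 and 14.1 CPM in WT and at 17.9, 14.4, 10.99, 11.4 and 12.9 CPM in IR 4A (-0.33, SE 0.22, edgeR adjusted p = 0.447). Atf6, the membrane-bound transcription factor, had 102, 82.1, 90.1, 79.3 and 86.9 CPM in WT against 82.8, 89.2, 75.7, 76.7 and 85.8 CPM in IR 4A (-0.10, SE 0.08, edgeR adjusted p = 0.533). Xbp1, whose mRNA Ire1 splices, had 175, 96.2, 117, 197 and 173 CPM in WT against 196, 129, 131, 122 and 124 CPM in IR 4A (-0.11, SE 0.20, edgeR adjusted p = 0.813). For Atf6, Eif2ak3 and Xbp1 the groups overlapped over most of their range. Counts per gene do not separate spliced from unspliced Xbp1. With the acute phase covariate Eif2ak3 and Atf6 turned sign, to 0.07 and 0.01, and without WT 4 Xbp1 did, to 0.005.

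Of the degradation genes 5 of 7 were negative, and the 2 that were not, Herpud1 and Derl2, were near 0. Syvn1, the ubiquitin ligase Hrd1 at the centre of the retrotranslocation complex, stood at 116, 54.8, 70.5, 77.8 and 74.7 CPM in WT liver and at 76.9, 47.5, 41.1, 43.7 and 41.2 CPM in IR 4A (-0.65, SE 0.21, edgeR adjusted p = 0.171). IR 4A 1 lay among the WT libraries and the other 4 IR 4A libraries below all WT libraries. Sel1l, the partner that holds Hrd1 in place, stood at 152, 104, 139, 118 and 127 CPM in WT and at 108, 113, 110.5, 104 and 106 CPM in IR 4A (-0.24, SE 0.10, edgeR adjusted p = 0.228). Edem1, which hands misfolded glycoproteins to this complex, stood at 183, 98.1, 111, 123 and 128 CPM in WT and at 113, 109, 95.5, 93.6 and 97.8 CPM in IR 4A (-0.34, SE 0.14, edgeR adjusted p = 0.252). For Sel1l and Edem1 the groups overlapped, and WT 1 was the highest library.

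The 3 derlins, membrane proteins of the retrotranslocation channel, and Herpud1 were not lower at an unadjusted p under 0.05. Derl1 stood at 91.3, 67.9, 72.9, 78.2 and 66.8 CPM in WT liver and at 74.3, 70.7, 55.1, 61.6 and 63.8 CPM in IR 4A (-0.21, SE 0.105). Derl2 had 50.8 ± 3.78 CPM in WT (SD, n = 5) and a log2 fold change of 0.04 (SE 0.07). Derl3 varied most of all members, at 11.4, 1.99, 4.30, 2.35 and 17.0 CPM in WT against 2.41, 9.39, 1.77, 1.93 and 10.9 CPM in IR 4A (-0.52, SE 0.67, edgeR adjusted p = 0.718). Both groups had libraries near 2 CPM and libraries above 9 CPM. Herpud1, a membrane protein that recruits Hrd1 and is induced by ER stress, stood at 237, 416, 348, 303 and 540 CPM in WT and at 380, 428, 323, 347 and 395 CPM in IR 4A (0.02, SE 0.19, edgeR adjusted p = 0.966). It was lowest in WT 1, the library in which most members were highest. Its sign depended on the libraries: it was -0.10 without WT 1, -0.04 without WT 4 and -0.03 without IR 4A 2. With WT 1 and WT 3 both left out, all 7 degradation genes were negative. With the acute phase covariate Herpud1 was at -0.22 and Derl2 at -0.02. Derl3 turned to 0.06 without WT 5.

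The translocon genes held the members whose liver groups did not overlap. Ssr4, the delta subunit of the translocon-associated protein complex (ENSMUSG00000002014), stood at 57.2, 47.8, 46.5, 45.3 and 45.7 CPM in WT and at 37.3, 36.7, 34.7, 33.8 and 39.7 CPM in IR 4A. All IR 4A libraries were below all WT libraries, with a difference of -0.41 (SE 0.08, edgeR adjusted p = 0.101). Sec61b, the beta subunit of the Sec61 channel (ENSMUSG00000053317), stood at 29.4, 19.1, 21.3, 18.8 and 19.7 CPM in WT and at 16.5, 13.6, 12.3, 11.1 and 14.3 CPM in IR 4A (-0.67, SE 0.14, edgeR adjusted p = 0.106). Sec61g, the gamma subunit (ENSMUSG00000078974), was low throughout, at 6.34, 3.26, 4.25, 5.18 and 3.79 CPM in WT and at 2.81, 2.56, 2.86, 1.46 and 2.90 CPM in IR 4A (-0.85, SE 0.23, edgeR adjusted p = 0.135). In these genes the separation did not rest on WT 1, since the other 4 WT libraries were above all IR 4A libraries too. Sec11c, a catalytic subunit of the signal peptidase, stood at 26.4, 17.2, 20.4, 21.0 and 18.1 CPM in WT and at 18.6, 14.46, 14.9, 11.9 and 15.2 CPM in IR 4A (-0.46, SE 0.13, edgeR adjusted p = 0.148), with IR 4A 1 inside the WT range. Ssr2, the beta subunit of the translocon-associated protein complex, stood at 61.9, 35.0, 41.2, 36.9 and 38.1 CPM in WT and at 36.4, 27.4, 25.0, 30.02 and 29.1 CPM in IR 4A (-0.53, SE 0.16, edgeR adjusted p = 0.15).

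The remaining translocon genes differed in size. The channel subunit Sec61a1 had -0.63 (SE 0.20), and the subunits Ssr1 and Ssr3 had -0.52 and -0.41. Sec62 and Sec63, which serve the channel for proteins that enter after they are made, had 0.05 and -0.20. The signal peptidase subunits Spcs1, Spcs2 and Spcs3 had -0.10, -0.51 and -0.20. Sec62, Sec63, Spcs1 and Spcs3 did not reach an unadjusted p of 0.05.

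**Figure D3:**
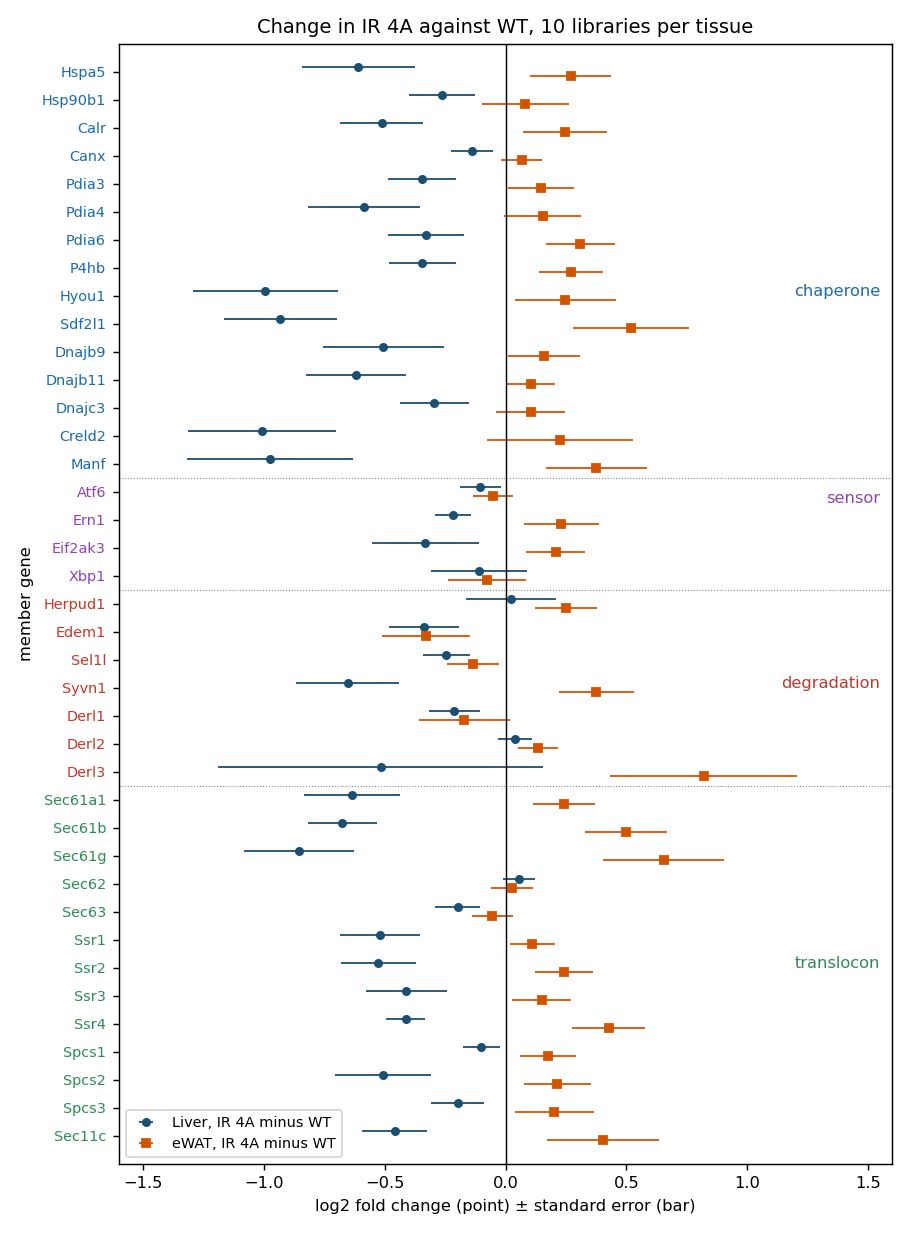
Log2 fold change of each member in IR 4A against WT (horizontal axis) with its standard error (bars), for liver (circles) and eWAT (squares), 5 libraries per group. Most liver points lie left of 0 and most eWAT points right of it, and the 3 largest liver differences are those of Creld2 (-1.01), Hyou1 (-0.99) and Manf (-0.97).

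In the authors' deposited table for liver, which comes from their own DESeq2 fit, 7 members were lower at an adjusted p under 0.05: Hyou1, Sdf2l1, Creld2, Sec61b, Sec61g, Ssr4 and Sec11c. The smallest DESeq2 adjusted p in the authors' deposited table was 0.00527, for Ssr4, and 0 members were higher. Over all genes with an adjusted p in that table, 1.33% were lower and 1.16% higher. DESeq2 run here on the counts gave 9 lower members, where 2% of all genes were lower by DESeq2, and 0 higher. In the authors' deposited table for eWAT 0 members passed in either direction. There 1.74% of all genes with an adjusted p were lower and 0.967% higher.

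In eWAT most members had slightly higher levels in IR 4A. A positive log2 fold change was found for 33 of 39, where 40.1% of the 16476 tested genes were positive, and the median was 0.21 against -0.08 for all genes. At an unadjusted p under 0.05, 4 members were higher (Sec61b, Ssr4, Sec61g and Syvn1) and 0 lower, where 6.63% of all genes were higher. None passed the adjusted threshold (lowest edgeR adjusted p = 0.239), and 0.0121% of all genes did. DESeq2 called 1 of the 39 members, Sec61b, where it called 3.17% of all genes higher. For no member were the groups apart, where 2.52% of all genes were higher without overlap. Positive values were found in 15 of 15 chaperones, 2 of 4 sensors, 4 of 7 degradation genes and 12 of 13 translocon genes, with medians of 0.23, 0.08, 0.14 and 0.21.

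As in liver, a WT library stood at one end. WT 4 was the lowest for 28 of 39 members, where it was the lowest for 24.8% of all genes, and IR 4A 2 was the highest for 24, where it was the highest for 11.3%. The members took 0.834% of the counts of WT 4 and 1.11% to 1.42% in the others. WT 4 was also the library with the lowest epididymis marker sum. The epididymis marker sum was 28190, 25880, 33370, 5770 and 40880 CPM in WT 1 to 5 and 35490, 48550, 48700, 44320 and 37640 CPM in IR 4A 1 to 5. Its most abundant gene, Gpx5, a secreted epididymal peroxidase, was at 10.2 CPM in WT 4 and between 9418 and 18040 CPM in the other libraries. The next, Adam7, was at 1187 CPM in WT 4 and between 4140 and 6817 CPM in the others. Crisp1, the third, did not follow the sum. It was at 2929 CPM in WT 4, 1461 to 2436 CPM in the other WT libraries and 2656 to 4311 CPM in IR 4A. Which part of the epididymis each library holds was not tested. Marker sums of other cell types went both ways in eWAT, and 2 of them were clearly lower in IR 4A. The sum of 12 stellate and fibroblast markers ran from 2753 to 6793 CPM in WT and from 738 to 2437 CPM in IR 4A, and that of 12 macrophage markers from 286.5 to 810 CPM in WT and from 124 to 246 CPM in IR 4A. Neither pair of groups overlapped, while those of the epididymis sum did. The adipocyte sum ran from 9949 to 33330 CPM in WT and from 3089 to 16580 CPM in IR 4A. Cholangiocyte markers, which are epithelial, ran higher in IR 4A, at 572.5 to 626.7 CPM against 238.2 to 576 CPM in WT. Mesothelium markers did too, at 540.1 to 634.1 CPM against 470.7 to 581.5 CPM. These 3 sums overlapped between the groups. The part of all these markers in the member values was not tested. WT 2 was the highest in the 14 sperm and spermatid markers, at 8528 CPM in sum, where the others ran from 234 to 3968 CPM.

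Without WT 4, 32 members were positive (40% of all genes), 3 were higher at an unadjusted p under 0.05 (6.26% of all genes) and the median was 0.10. These 3 were Ssr4, Sec61b and Derl3. Of the chaperones, Hsp90b1 turned to -0.04. With the epididymis marker level as a covariate, a setting added after the data were seen, 21 members were positive and 18 negative, and the median was 0.006. In it 0 members had an unadjusted p under 0.05, where 3.04% of all genes were higher and 3.68% lower. The chaperone median turned to -0.04 in that fit. How much of the eWAT values came from epididymis and how much from fat cells was not tested beyond these fits.

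**Figure D4:**
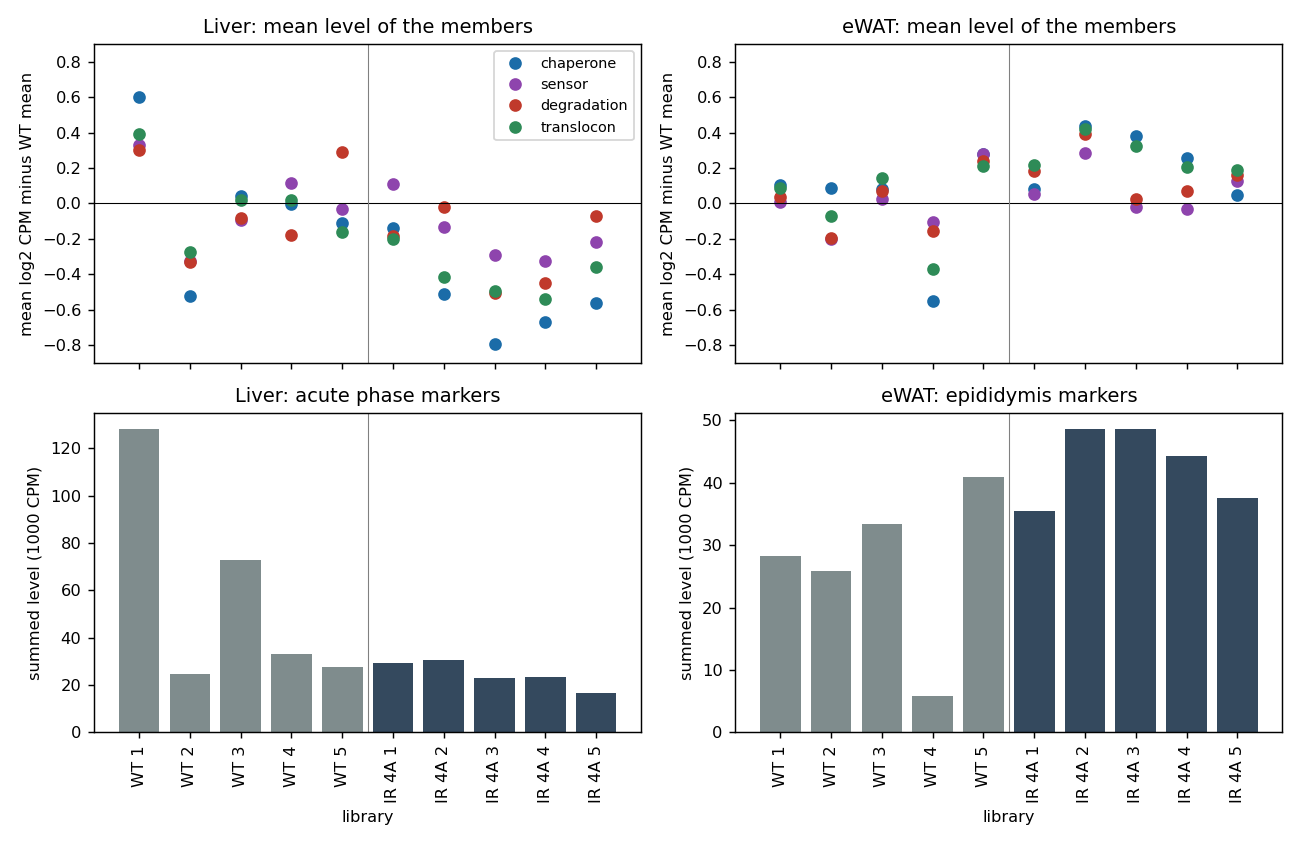
Top: mean log2 CPM of the members of each function in each library, minus its WT mean, in liver and eWAT. Bottom: summed CPM of the acute phase markers in liver and of the epididymis markers in eWAT in the same libraries (bars). Liver WT 1 has the highest acute phase sum (128400 CPM) and eWAT WT 4 the lowest epididymis sum (5770 CPM).

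Among the eWAT translocon genes, Sec61b stood at 28.9, 20.7, 33.3, 21.6 and 36.2 CPM in WT and at 37.2, 43.7, 45.3, 35.9 and 36.6 CPM in IR 4A (0.50, SE 0.17, edgeR adjusted p = 0.239). Only IR 4A 4 lay below the highest WT library. Ssr4 stood at 88.7, 75.5, 105.5, 64.8 and 109 CPM in WT and at 111, 133, 136, 109 and 108 CPM in IR 4A (0.43, SE 0.15, edgeR adjusted p = 0.248). Sec61g stood at 7.91, 3.95, 6.76, 3.83 and 7.58 CPM in WT and at 11.6, 10.7, 9.31, 7.86 and 7.77 CPM in IR 4A (0.65, SE 0.25, edgeR adjusted p = 0.265). In all 3 genes WT 2 and WT 4 were the lowest libraries and the other 3 WT libraries lay between them and most of the IR 4A libraries. Ssr2 stood at 101, 71.8, 109, 102 and 109 CPM in WT and at 129.5, 119, 122, 107 and 105 CPM in IR 4A (0.24, SE 0.12, edgeR adjusted p = 0.359). Sec11c had 112.5 ± 34.5 CPM in WT (SD, n = 5) and 0.40 (SE 0.23). The other translocon genes ran from -0.05 (Sec63) to 0.24 (Sec61a1).

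The eWAT chaperones were all positive, and none had an unadjusted p under 0.05. Sdf2l1 stood at 37.8, 31.5, 35.1, 18.1 and 44.9 CPM in WT and at 43.3, 58.4, 58.0, 46.6 and 33.5 CPM in IR 4A (0.52, SE 0.24, edgeR adjusted p = 0.327). Pdia6 stood at 542, 439, 538, 404 and 607 CPM in WT and at 571, 728, 698, 613 and 526 CPM in IR 4A (0.31, SE 0.14, edgeR adjusted p = 0.327). P4hb, the classical protein disulfide isomerase, stood at 681, 567, 747, 521 and 802 CPM in WT and at 761, 873, 810, 766 and 795 CPM in IR 4A (0.27, SE 0.13, edgeR adjusted p = 0.35). In these 3 genes IR 4A 2 was the highest library and WT 4 the lowest. Manf stood at 171, 158, 174, 84.0 and 193 CPM in WT and at 180, 217, 237, 215 and 163 CPM in IR 4A (0.38, SE 0.21, edgeR adjusted p = 0.403). The other 11 chaperones ran from 0.07 (Canx) to 0.27 (Hspa5). Hspa5 itself had 1117 ± 198 CPM (SD, n = 5) in WT and an SE of 0.17.

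The eWAT sensors and degradation genes went both ways. Syvn1 stood at 97.1, 72.4, 110, 103 and 137 CPM in WT and at 140, 157, 129, 131.5 and 116 CPM in IR 4A (0.38, SE 0.16, edgeR adjusted p = 0.29). Derl3 stood at 31.8, 23.8, 29.7, 6.59 and 38.7 CPM in WT and at 37.0, 59.2, 54.5, 43.9 and 35.9 CPM in IR 4A (0.82, SE 0.39, edgeR adjusted p = 0.335). Its fold change was the largest of all members in eWAT, and 0.57 without WT 4. Herpud1 stood at 105, 124, 95.2, 92.6 and 125.5 CPM in WT and at 111, 159, 124, 135 and 116 CPM in IR 4A (0.25, SE 0.13, edgeR adjusted p = 0.363). Edem1 was lower, at 82.9, 62.7, 82.6, 109 and 81.8 CPM in WT against 75.9, 75.2, 47.3, 56.0 and 79.5 CPM in IR 4A (-0.33, SE 0.18, edgeR adjusted p = 0.4). With 1 surrogate variable it was the only member called in eWAT, at -0.40 (edgeR adjusted p = 0.0379), where 7.83% of all genes were called lower. Over its other alternatives it did not pass. Unlike most members, Edem1, Sel1l (-0.13) and Derl1 (-0.17) were highest in WT 4, while Derl2 had 0.14.

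Of the sensors, Ern1 stood at 126.5, 120.2, 133, 93.7 and 162 CPM in WT eWAT and at 117, 181, 156, 151.5 and 140 CPM in IR 4A (0.23, SE 0.15). Eif2ak3 stood at 38.4, 32.8, 39.4, 35.3 and 48.6 CPM in WT and at 47.1, 49.4, 37.9, 42.3 and 47.6 CPM in IR 4A (0.21, SE 0.12). Atf6 stood at 78.7, 82.4, 84.2, 76.2 and 95.3 CPM in WT and at 77.9, 89.5, 74.1, 76.4 and 83.9 CPM in IR 4A (-0.05, SE 0.08). In these 3 genes the groups overlapped. Xbp1 stood at 181, 120, 165, 201 and 197 CPM in WT and at 184, 188, 147, 127 and 172.5 CPM in IR 4A (-0.08, SE 0.16). The edgeR adjusted p of the 4 sensors ran from 0.43 to 0.814.

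Whether the IR 4A change differed between the tissues was tested directly, as the interaction of tissue and genotype over all 20 libraries. The difference, eWAT minus liver, was positive for 37 of 39 members (median 0.61, against -0.12 for 14696 genes). At an unadjusted p under 0.05 it was positive for 22 members and negative for 0, where 7.51% of all genes were positive. After adjustment 4 members passed, where 0.735% of all genes passed with a positive difference. These were Sec61b (1.16, SE 0.23, edgeR adjusted p = 0.0207), Ssr4 (0.82, SE 0.18, edgeR adjusted p = 0.029), Sec61g (1.48, SE 0.35, edgeR adjusted p = 0.0369) and Sdf2l1 (1.43, SE 0.36, edgeR adjusted p = 0.0447). Each was lower in IR 4A liver and higher in IR 4A eWAT, and 3 of the 4 belong to the translocon. DESeq2 called 16 members, where it called 4.1% of all genes with a positive difference. Next in order by edgeR stood Ssr2 (0.75) and Syvn1 (1.01), with edgeR adjusted p of 0.0581 and 0.0582.

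**Figure D5:**
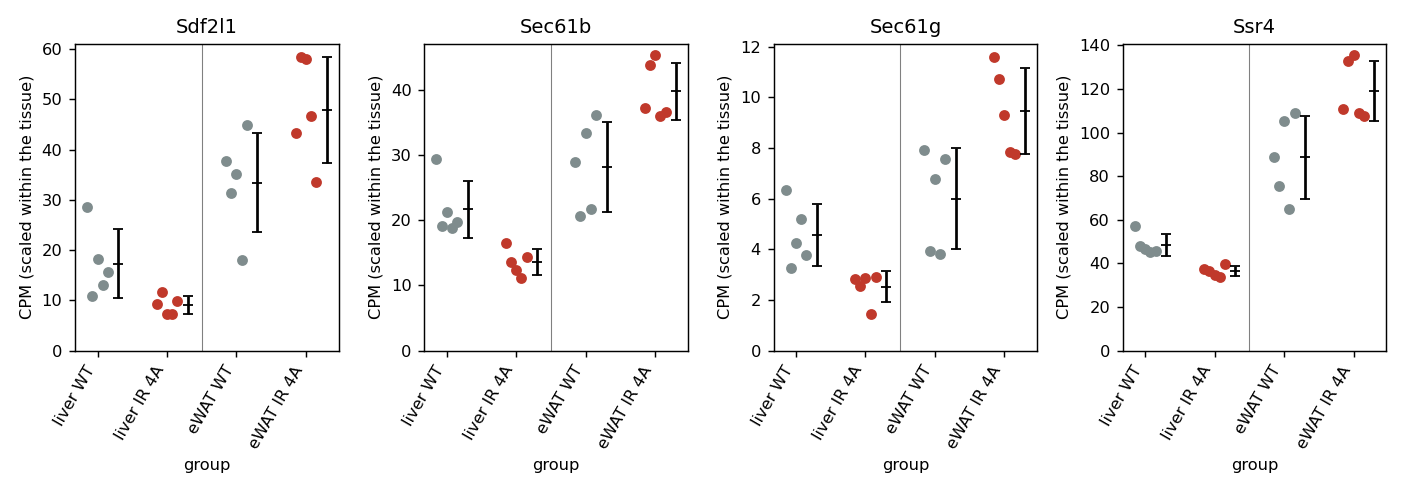
CPM of the 4 members whose IR 4A change differed between tissues, one point per library (grey WT, red IR 4A), with mean and SD beside them (black, n = 5). CPM is scaled within each tissue, so the left and right parts of a panel show separate scales. In liver the IR 4A points of Sec61b, Sec61g and Ssr4 lie below all WT points, and in eWAT they lie mostly above them.

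The call for Sec61b was kept when any of the 20 libraries was left out, and the other 3 calls were not. It was kept narrowly for Sec61b, with an edgeR adjusted p of up to 0.0499 (without liver IR 4A 4). Without liver WT 1 Sec61b was the only call, with edgeR adjusted p of 0.0525 for Ssr4, 0.0618 for Sec61g and 0.0701 for Sdf2l1. Ssr4 also ended without IR 4A 2, 3 or 4 of either tissue (edgeR adjusted p up to 0.0647). Sec61g ended without these, liver WT 3 or WT 4, liver IR 4A 5 or eWAT WT 3 (up to 0.0687). Sdf2l1 ended without any of the IR 4A libraries named for Ssr4, liver WT 3, WT 5 or IR 4A 5, or eWAT WT 1, WT 2 or WT 3 (up to 0.0902). Without eWAT WT 4 the same 4 members passed, and without liver WT 1 and eWAT WT 4 together 2 did, Sec61b and Ssr4. Members called numbered 8 without liver WT 2, 10 without liver IR 4A 1 and 2 without liver WT 3, liver IR 4A 5 or eWAT WT 3, and 1 without liver IR 4A 2, 3 or 4 or eWAT IR 4A 2, 3 or 4. Positive calls over all genes moved as well. They numbered 108 of 14696 with all libraries, 114 without liver WT 2 and 230 without liver IR 4A 1. In the fits named with 2 members they were 22 to 53, and without the IR 4A libraries named last 10 to 24. Without liver WT 1 they were 27, without eWAT WT 4 131 and without both 35.

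Levels per kilobase of transcript ordered the members alike in kind in both WT tissues. In WT liver the highest were P4hb at 695, Calr at 495 and Hsp90b1 at 483 CPM per kilobase, and the lowest Eif2ak3 at 6.25, Derl3 at 5.62 and Sec61g at 5.03. In WT eWAT the highest were Calr at 822, Hsp90b1 at 738 and P4hb at 366 CPM per kilobase, and the lowest Eif2ak3 at 14.3, Atf6 at 11.5 and Sec61g at 6.62. Sec61g was thus the lowest member in both tissues. The transcript lengths are from GRCm38 while the authors used GRCm39.

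WT eWAT and WT liver were compared on a scale set over all 20 libraries, and the result turned on that scale. With TMM factors 25 members were lower and 1 higher in eWAT at an adjusted p under 0.05, where 33.9% of all genes were lower and 43.2% higher. The median difference was -0.57, against 0.19 for all genes. With library totals alone 31 were higher and 3 lower, with a median of 0.94 against 1.69 for all genes. Relative to all genes the members were thus lower in eWAT under both. The gene that was higher with TMM factors was Sec11c (1.13, SE 0.20, edgeR adjusted p = 4.92e-05). The largest negative value was that of Herpud1 (-3.09, SE 0.19, edgeR adjusted p = 2.79e-11), followed by P4hb (-2.25) and Edem1 (-1.95).

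The promoter elements did not divide the members by direction. In liver the 11 members with ERSE or ERSE-II had a median log2 fold change of -0.51 (10 of 11 negative), and the 20 with a window and neither element -0.34 (18 of 20 negative). In eWAT these medians were 0.25 (11 of 11 positive) and 0.16 (16 of 20 positive). The translocon genes Sec61b, Sec61g and Ssr4, whose liver groups were apart, have windows with neither element. These values describe the members and were not tested.

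Other genes of the same pathways, taken from 6 lists, were read from the same fits. None passed the adjusted threshold in liver or eWAT. In liver, N-glycosylation and glucose trimming stood closest to the members, with 17 of 20 negative, 11 lower at an unadjusted p under 0.05 and a median of -0.28. Its smallest p-values were those of Dad1 (-0.38, SE 0.11) and Krtcap2 (-0.51, SE 0.15), both subunits of the oligosaccharyltransferase. Other folding enzymes had 6 of 25 lower and 0 higher at that level, led by the oxidase Ero1b (-0.54, SE 0.15) and the disulfide isomerase Txndc5 (-0.39, SE 0.11). Targeting and insertion factors had 5 of 26 lower, among them Emc10 of the membrane insertase (-0.27) and Get3, which carries tail-anchored proteins (-0.29). Other degradation genes had 4 lower and 2 higher of 24, with the ligase Rnf139 at 0.35 and Ubxn4 at -0.30. Other sensors and proteases had 3 lower and 1 higher of 13, with Wfs1 at -0.50 and Atf6b at -0.39.

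Of the targets of the Perk branch, 2 of 14 were lower and 2 higher in liver at an unadjusted p under 0.05, with a median of -0.02. Over all genes 9.48% were lower and 8.6% higher. The transcription factor gene Atf5 had 160 ± 77.5 CPM in WT against 78.2 ± 9.06 CPM in IR 4A (SD, n = 5), a log2 fold change of -1.03 (SE 0.26), and the mTOR inhibitor gene Ddit4 had -1.17 (SE 0.32). The higher ones were the stress-induced transcription factor gene Atf3 (1.18, SE 0.37) and the lipoprotein receptor gene Vldlr (1.15, SE 0.46), chosen after their values were seen, both with WT means under 0.5 CPM. Without WT 1 the counts at that level were 8 of 20 for N-glycosylation, 5 of 25 for folding enzymes, 5 of 26 for targeting, 3 lower and 2 higher for degradation, 3 and 0 for sensors and 2 and 1 for Perk targets. In that fit 6.84% of all genes were lower and 6.95% higher. The edgeR adjusted p of the lists' genes in liver was at least 0.127.

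In eWAT 6.63% of all genes were higher and 9.24% lower at an unadjusted p under 0.05, and the shares of the targeting, degradation and Perk lists were near those. N-glycosylation had 18 of 20 positive with 5 higher and 0 lower, led by the oligosaccharyltransferase subunits Ost4 (0.39, SE 0.11) and Dad1 (0.38, SE 0.12). Without WT 4 the 5 became 3. Folding enzymes had 4 higher and 2 lower of 25, among them Fkbp2, a prolyl isomerase (0.33), and Cnpy3 (0.28). Targeting had 2 higher and 1 lower of 26, with Emc4 at 0.23 and Tram2 at -1.001, and degradation had 2 higher and 0 lower of 24, Rnf5 at 0.33 and Edem2 at 0.35. Sensors and proteases had 3 higher and 1 lower of 12, with Creb3 at 0.31 and Creb3l1 at -0.85. Perk targets had 1 of each among 14, Atf4 at 0.28 and the asparagine synthetase gene Asns at -0.45. The edgeR adjusted p of the lists' genes in eWAT was at least 0.203.

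The difference between tissues, eWAT minus liver, was read for the same lists. It passed the adjusted threshold for 2 of 20 N-glycosylation genes, 1 of 26 targeting genes and 2 of 13 sensors and proteases. The folding, degradation and Perk lists held 0 such genes. Over all 14696 genes 0.735% passed with a positive difference. The 5 genes were Dad1 (0.74, SE 0.17, edgeR adjusted p = 0.0364), Ost4 (0.72, SE 0.17, edgeR adjusted p = 0.0395), Creb3 (0.54, SE 0.14, edgeR adjusted p = 0.0436), Wfs1 (1.04, SE 0.26, edgeR adjusted p = 0.0461) and Get3 (0.46, SE 0.12, edgeR adjusted p = 0.0496). Dad1 and Ost4 are subunits of the oligosaccharyltransferase, which works at the translocon, where Sec61b, Sec61g and Ssr4 act as well. In all 5 the liver value was negative and the eWAT value positive. None of the 5 calls held when single libraries were left out in turn: of 20 such fits Dad1 passed in 12, Ost4 in 9, Creb3 in 6, Wfs1 in 4 and Get3 in 3 (highest edgeR adjusted p = 0.0951). The libraries whose absence ended all 5 were liver WT 1, liver IR 4A 2, 3, 4 and 5, and eWAT IR 4A 2, 3 and 4.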

How the data were processed

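Liver and eWAT messenger RNA was sequenced in 20 libraries, 5 per group. The authors deposited gene-level estimated counts as whole numbers. The tools named in the submitters' processing notes are Salmon (1.8.0) and DESeq2 (version 1.32.0), with the genome GRCm39. The authors' deposited DESeq2 tables hold a mean signal, log2 fold changes, standard errors, a test score and p-values, of which the p-values and directions are quoted. Repeated identifiers were dropped (83 in liver, 208 in eWAT). The filter on low counts was filterByExpr in edgeR (version 4.0.16, minimum count of 10 and total of 15) and left 12421 in liver, 16476 in eWAT and 14696 for both. Libraries were scaled by TMM, and two-sided p-values of edgeR's quasi-likelihood test were adjusted by Benjamini-Hochberg over all genes tested, with a threshold of 0.05 (R 4.3.3). The interaction and the WT tissue contrast came from 1 fit of 20 libraries. Between-library variation (BCV) was 0.187 for liver, against 0.512 for eWAT. Libraries of a group were not duplicates (chi-square per degree of freedom at least 12.5). The fitting was tested on simulated data.

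The members, lists and tests were chosen with earlier results of these data known. Per-library values are given for up to 4 members of each function with the smallest p in each tissue and for those past the threshold for IR 4A. Members past it between WT tissues alone are given by counts and 3 examples. Up to 2 genes of each other list are named per tissue, by smallest p at a mean of at least 1 CPM. Hspa5 and Ssr2 in liver, and the other values named outside these rules, were added after the data were seen. Tried beside this were scaling by RLE or upper quartile, a filter of 1 CPM in 5 libraries or none, DESeq2 1.42.0, limma 3.58.1 voom with sample weights, 1 surrogate variable (sva 3.50.0), the fit of 20 libraries, the replicate number as a block and leaving out libraries. Marker covariates, removal of GC and length trends and omission of pairs of libraries other than liver WT 1 and WT 3 were added after the data were seen. The covariates and the removal of GC and length trends were fitted within each tissue and not for the difference between tissues.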

Additional observations from a re-analysis of the deposited data

Results flagged for a closer look

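In 16 of the 156 groups of 5 libraries (39 members, 4 groups) the highest or lowest library was far from the others by Dixon's criterion. The criterion is set to flag about 1 group in 20 of independent values, but the members moved together within libraries. The share over all genes was not taken, so no excess is read from this count. In IR 4A liver IR 4A 1 stood above the other libraries of its group for 5 members: Hspa5 (534 CPM), Creld2 (25.4 CPM), Manf (46.7 CPM), Xbp1 (196 CPM) and Syvn1 (76.9 CPM). In WT liver WT 1 stood above the others for 4 translocon genes, Sec61b (29.4 CPM), Sec63 (226 CPM), Ssr2 (61.9 CPM) and Ssr4 (57.2 CPM). Low values apart from the rest of IR 4A liver were those of Derl2 in IR 4A 2 (47.8 CPM) and Sec61g in IR 4A 4 (1.46 CPM). In eWAT the libraries apart were IR 4A 2, high for Dnajc3 (316 CPM) and Spcs3 (119 CPM), WT 4, low for Ssr1 (168 CPM) and Spcs3 (55.4 CPM), and WT 2, low for Ssr2 (71.8 CPM).

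The IR 4A change differed between tissues, by the interaction test in edgeR with Benjamini-Hochberg adjustment, for Sdf2l1 (eWAT minus liver 1.43), Sec61b (1.16), Sec61g (1.48) and Ssr4 (0.82).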

How the results depend on the processing

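Lower liver members at an unadjusted p under 0.05 numbered 23 with all libraries, 14 with 1 surrogate variable, 10 without WT 1 and WT 3, 4 with the acute phase covariate, and 15 (without WT 1) to 31 (without WT 2) when single libraries were left out. Over all genes the shares lower were 9.48% with all libraries, 7.18% with 1 surrogate variable and 5.98% without WT 1 and WT 3. They were 5.14% with the acute phase covariate, 6.84% without WT 1 and 11.3% without WT 2. By adjusted p the lower liver members numbered 0, 9 with DESeq2 (2% of all genes), and 0 to 4 (without IR 4A 1: Hyou1, Creld2, Syvn1 and Sec61b) when single libraries were left out. Over all genes 63 of 12556 were lower by adjusted p without IR 4A 1. Higher eWAT members at an unadjusted p under 0.05 numbered 4 with all libraries, 12 with upper-quartile scaling and with DESeq2, 7 with voom and with 1 surrogate variable, 8 with GC and length trends removed, 2 without WT 2 and WT 4, 0 with the epididymis covariate, and 2 (without IR 4A 1 or IR 4A 2) to 12 (without WT 5) when single libraries were left out. Over all genes the shares higher were 6.63% with all libraries, 10.2% with upper-quartile scaling and 10.1% with DESeq2 and with voom. They were 8.6% with 1 surrogate variable, 6.63% with GC and length trends removed, 6.3% without WT 2 and WT 4 and 3.04% with the epididymis covariate. Without IR 4A 1 the share was 5.48%, without IR 4A 2 3.45% and without WT 5 8.59%. By adjusted p DESeq2 gave 1 higher eWAT member (3.17% of all genes), and 1 surrogate variable gave 1 lower member, Edem1 (7.83% of all genes). Members whose change differed between tissues numbered 4 with all libraries, 16 with DESeq2, 2 without liver WT 1 and eWAT WT 4, and 1 to 10 when single libraries were left out. Over all genes 0.735% passed with a positive difference with all libraries, and 4.1% with DESeq2. Without liver WT 1 and eWAT WT 4, 35 of 14749 genes did, and 10 to 297 genes when single libraries were left out. The replicate numbers did not pair libraries: deviations of same-numbered libraries correlated at -0.0723 to 0.077 in liver, -0.726 to 0.67 in eWAT and -0.103 to 0.0406 between tissues. With the replicate number as a block, 25 liver members were lower at an unadjusted p under 0.05, where 8.86% of all genes were. In eWAT 3 members were higher at that level, where 3.84% of all genes were. By adjusted p the block fit called 0 members for the tissue difference, and 0 of all 14696 genes. Members that turned sign in liver were Eif2ak3 (0.0685), Atf6 (0.0101), Herpud1 (-0.223) and Derl2 (-0.0169) with the acute phase covariate, Herpud1 (-0.165) and Derl2 (-0.00627) without WT 1 and WT 3, Herpud1 (-0.152) with 1 surrogate variable, and Derl2 (-0.00376) and Sec62 (-0.0372) with GC and length trends removed. Over single libraries left out, liver Xbp1 ran from -0.258 to 0.00468, Herpud1 from -0.102 to 0.2004 and Derl3 from -0.958 to 0.0556. In eWAT the epididymis covariate turned the chaperone median (-0.0382), Calr (-0.00523), Creld2 (-0.286), Dnajb11 (-0.0382), Dnajb9 (-0.0528), Dnajc3 (-0.113), Hsp90b1 (-0.196), Hyou1 (-0.1001), Pdia3 (-0.0487), Pdia4 (-0.102), Spcs2 (-0.0123), Spcs3 (-0.0777), Ssr1 (-0.0309), Ssr3 (-0.0315) and Derl1 (0.025). Upper-quartile scaling turned Atf6 (0.0306) and Sec63 (0.0305), removal of GC and length trends Atf6 (0.211), Sec63 (0.213) and Sel1l (0.101), voom Xbp1 (0.00701), and leaving out WT 2 and WT 4 Hsp90b1 (-0.00391). Over single libraries left out, eWAT Atf6 ran from -0.0964 to 0.00298, Xbp1 from -0.159 to 0.0027, Hsp90b1 from -0.0448 to 0.162 and Sec62 from -0.0202 to 0.0649. Between WT tissues, library totals alone gave 31 higher and 3 lower members and medians of 0.944 over all members, 1.07 for chaperones, 0.712 for sensors, 0.239 for degradation genes and 1.06 for the translocon. The causes of these shifts were not tested. Sec61g, at 1.46 to 11.6 CPM, has the fewest counts of the members called.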
